A study of Mus musculus with 6 samples.

Results

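Genomic DNA of forestomach epithelia from 3 Tgfbr2 fspKO mice, named FSP270, FSP273 and FSP373, was compared with DNA of control epithelia by array-CGH. The arrays were those whose titles give laser captured epithelia of the knockout, which made 3 of the 6 arrays of the series, and the other 3 carried stroma of the same mice. In Tgfbr2 fspKO mice, on a C57Bl/6 background, both floxed alleles of Tgfbr2 are removed by a Cre recombinase under the promoter of FSP1 (S100a4), so the receptor is lost in FSP1+ fibroblasts and not by design in the epithelial cells. These mice develop squamous cell carcinoma of the forestomach, and the tissue was taken at 5 weeks of age. The reference on every array was DNA from normal forestomach epithelia of Tgfbr2 flox/flox mice, which carry the floxed alleles without the knockout. Whether that DNA was pooled is not given in the sources used here, and neither is the sex of the mice. FSP270 and FSP273 were on 1 slide and FSP373 on another, no array had the dyes swapped, and no Tgfbr2 flox/flox mouse was a test sample, so the spread between control mice was not measured.

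In array-CGH, test DNA (here Cy3) and reference DNA (here Cy5) compete for the same probes, and the log2 ratio of test over reference follows the relative copy number. A gain of 1 copy in every cell of a diploid tissue would give 0.58, and a loss of 1 copy would give -1. Captured tissue is a mixture, so that a change in few cells and a smaller change in many cells cannot be told apart. Squamous carcinomas often carry gains and losses of whole chromosomes or arms beside short deletions of tumor suppressor genes. Each array held 42404 different probes, 40666 of them on the 19 autosomes, at a median distance of 21466 bp (mm8 positions). The test signal was well above background at 92.9% of the probe spots in FSP270, 87.9% in FSP273 and 98.3% in FSP373. For the reference signal it was 82.0%, 78.8% and 97.5%. Noise between neighboring probes, as an SD on the log2 scale, was 0.48, 0.85 and 0.40 in the same order, so FSP273 was the least precise array. Across probes, which are not independent replicates and share the reference DNA, the log2 ratios of the epithelial arrays hardly correlated, with -0.095 for FSP270 and FSP273, 0.045 for FSP270 and FSP373 and 0.20 for FSP273 and FSP373. The epithelia of FSP373 correlated more with stroma, at 0.59 with that of FSP373, 0.29 with that of FSP270 and 0.24 with that of FSP273, and the part of this in the results was not tested. The low run of 4 probes on chromosome 4, from 88759685 to 88864773, was set aside, and the changes beyond it are described here.

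At the level of whole chromosomes, the epithelia of all 3 mice had a higher mean ratio on chromosome 8, and 5 other autosomes with smaller shifts were called. With limma on the mean ratio of each chromosome against 0, 6 of 20 chromosomes were called at an adjusted p under 0.05 (30%), 3 higher and 3 lower than the reference. Chromosome 8 stood highest, with a mean log2 ratio of 0.24 in FSP270, 0.50 in FSP273 and 0.29 in FSP373, or 0.34 ± 0.14 (SD, n = 3 mice, adjusted p = 0.0126, limma). Chromosome 19 had 0.13, 0.073 and 0.16 in the 3 mice (0.12 ± 0.044, adjusted p = 0.0336, limma), and it carries Rela, a subunit of NF-κB. All 3 mice had a ratio above 0 on this chromosome.

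Chromosome 15 was the remaining higher one, with 0.085, 0.13 and 0.088 in FSP270, FSP273 and FSP373 (0.10 ± 0.023, adjusted p = 0.0352, limma). It carries Krt5, a keratin of the basal layer of squamous epithelia. Among the lower chromosomes, chromosome 18 had -0.13, -0.12 and -0.16 (-0.13 ± 0.023, adjusted p = 0.0210, limma). Chromosome 18 carries Smad2, a receptor-activated Smad of TGF-β signaling, Smad4, the common partner of the pathway, and Smad7, its inhibitor. Chromosome 1 had -0.10, -0.13 and -0.15 (-0.13 ± 0.025, adjusted p = 0.0210, limma), and it carries Ptgs2, the gene of COX2. Chromosome 13 had -0.070, -0.14 and -0.10 (-0.10 ± 0.033, adjusted p = 0.0352, limma). All called shifts were thus below the size of 1 copy in every cell. Chromosome 8 came nearest, with 0.24 in FSP270, 0.50 in FSP273 and 0.29 in FSP373, against 0.58 for a gain of 1 copy. The other called shifts were far below that size.

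**Figure D1:**
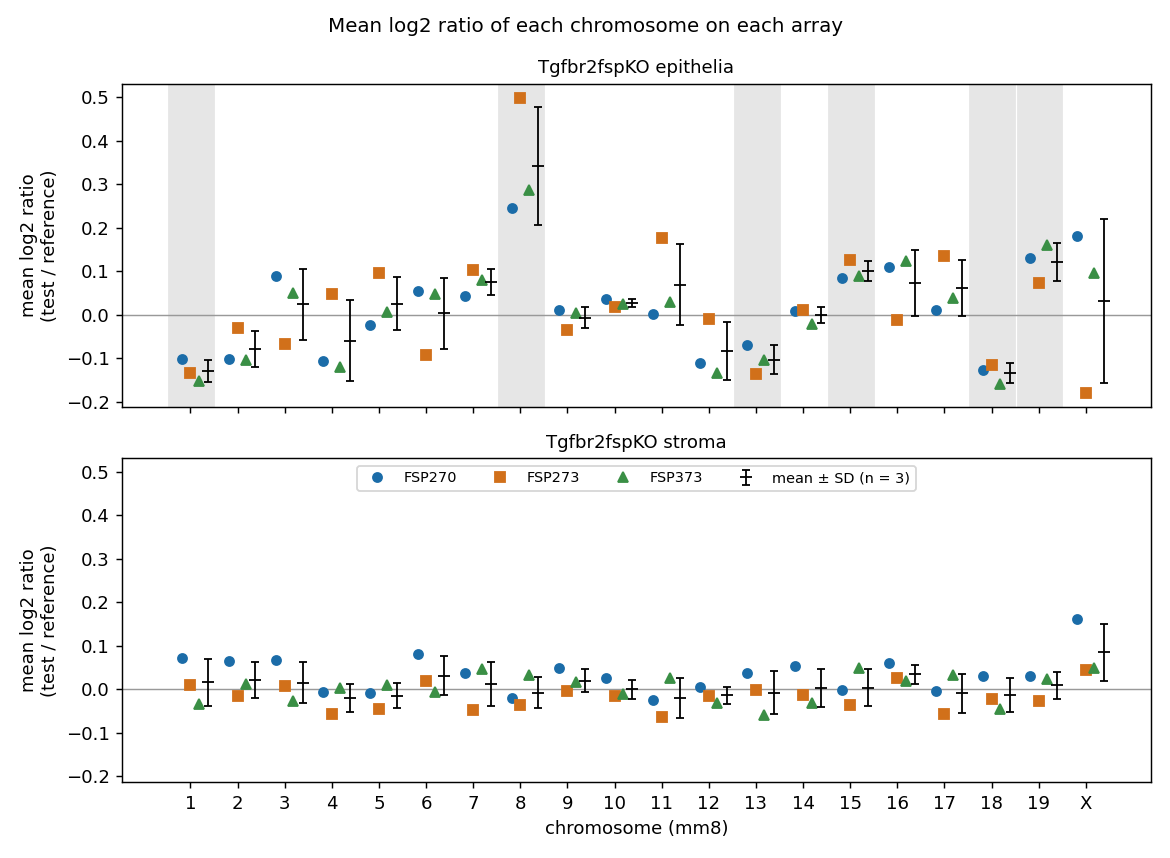
Mean log2 ratio (test over reference) of the probes of each mm8 chromosome on each array, with epithelia above and stroma below; colored symbols are mice, black bars the mean ± SD of 3 mice, and grey bands mark the 6 chromosomes called in the epithelia. Chromosome 8 lies at 0.24, 0.50 and 0.29 in the epithelia and at -0.020, -0.035 and 0.033 in the stroma.

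These calls rested on few arrays. Without FSP373 no chromosome was past the threshold (limma, 3 at an unadjusted p under 0.05), without FSP270 only chromosome 8 was, and without FSP273 there were 14, 8 higher and 6 lower. With normexp background correction or with the median of the probes in place of the mean, 3 were called, chromosome 8 higher and chromosomes 1 and 18 lower, and chromosomes 13, 15 and 19 lost their call.

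The 6 chromosomes lay closer to 0 in the stroma. The stromal mean of chromosome 8 was -0.0074 ± 0.036 (SD, n = 3), against 0.34 in the epithelia. For epithelia minus stroma, limma called 3 of 20 chromosomes (15%), chromosome 8 higher and chromosomes 1 and 18 lower in the epithelia. The difference of chromosome 8 was 0.35 (SE 0.057, adjusted p = 0.000890, limma; 0.0204 with the mouse as a block and 0.00334 with the slide as a block). Chromosome 1 differed by -0.15 (SE 0.040, adjusted p = 0.0303, limma), and with the mouse as a block the adjusted p was 0.0468. Chromosome 18 differed by -0.12 (SE 0.038, adjusted p = 0.0459, limma), and the call was lost with either block (adjusted p = 0.0741 with the mouse and 0.0736 with the slide). For chromosomes 13, 15 and 19 the differences were -0.096, 0.095 and 0.11, none past the threshold. Without the stroma of FSP270 limma called 0 chromosomes (4 at an unadjusted p under 0.05), and chromosome 8 then had a difference of 0.34 (adjusted p = 0.103, limma). Limma called 10 without the epithelia of FSP273, 1 without the epithelia of FSP373 and 1 without the stroma of FSP273. On the slide that held FSP270 and FSP273 alone, only chromosome 8 was called.

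Each channel was also compared by itself. Within Cy3, the centered log2 signal of chromosome 8 in epithelia minus stroma was 0.30, 0.50 and 0.21 in FSP270, FSP273 and FSP373. Within Cy5, which held control DNA on both arrays of each mouse, it was 0.0041, -0.00062 and -0.0048. Chromosome 18 had -0.11, -0.14 and -0.15 in Cy3 and 0.016, -0.019 and -0.0029 in Cy5, and chromosome 1 had -0.15, -0.18 and -0.15 in Cy3 and -0.0023, -0.0026 and 0.0050 in Cy5. The reference signal of these chromosomes was therefore nearly equal on the epithelial and the stromal arrays. Since Cy5 held control DNA on all of them, this followed from the design. What lay behind the Cy3 differences was not tested.

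The array files name no genes, and an mm8 gene annotation was not used here, so genes were placed by chromosome only. Of the 37 genes of the fixed lists, none was on chromosome 8. Cdkn2a, Cdkn2b and Cdkn2c, inhibitors of the cyclin D kinases, are on chromosome 4, whose mean was -0.11, 0.048 and -0.12 in the 3 mice and was not called (adjusted p = 0.295, limma). Trp53 is on chromosome 11 (0.0025, 0.18 and 0.028, adjusted p = 0.236, limma) and Cdkn1a, the gene of p21, on chromosome 17 (0.011, 0.13 and 0.039, adjusted p = 0.213, limma). On both of these, FSP273 was the highest array by more than the gap between the other two.

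All 10 growth drivers were on chromosomes without a call, as were 30 of all 37 listed genes. Of the 20 chromosomes, 6 (30%) had a call, 3 higher and 3 lower, so most of the genome was without one. Genes on the same chromosome share its mean and are not separate results. Cdk4, a kinase partner of the D cyclins, is on chromosome 10, with 0.037, 0.018 and 0.024 (adjusted p = 0.497, limma). Ccnd1 (cyclin D1) and Hras are on chromosome 7, with 0.044, 0.10 and 0.079 (adjusted p = 0.0923, limma). Met, the receptor of HGF, is on chromosome 6 (0.055, -0.092 and 0.046) and Hgf on chromosome 5 (-0.023, 0.095 and 0.0052), where the mice differed in sign. Of the 7 genes of the TGF-β pathway, 3 were on the lower chromosome 18 and 4 on uncalled ones, and 4 of all 37 listed genes were on a lower chromosome. Tgfbr2 itself is on chromosome 9, with 0.010, -0.035 and 0.0027, which was not called (adjusted p = 0.883, limma). Of 6 genes of the squamous lineage, Krt5 alone was on a called chromosome, while Trp63, on chromosome 16, had 0.11, -0.013 and 0.12. Among 6 genes of inflammation and stroma, Rela was on a higher and Ptgs2 on a lower chromosome. A chromosome mean does not give the copy number at a gene on it.

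Within chromosomes, 5 Mb windows showed where the broad shifts lay. Of 462 autosomal windows limma called 0 (0%), although 39 were under an unadjusted p of 0.05, 22 higher and 17 lower. The higher ones included 17 of the 24 windows of chromosome 8. On that chromosome 20 windows (83.3%) were above 0 in all 3 epithelia, against 74 of all 462 windows (16%), and in the stroma 6 of the 24 were above 0 in all 3 mice. On chromosome 18, 11 of 17 windows (64.7%) were below 0 in all 3 epithelia, on chromosome 1 it was 17 of 35 (48.6%) and on chromosome 13 it was 11 of 24 (45.8%), against 86 of all windows (18.6%). The uncalled chromosomes 2 and 14 had 14 of 36 (38.9%) and 6 of 19 (31.6%). In the stroma, 6 of the 17 windows of chromosome 18 were below 0 in all 3 mice. It was 6 of 35 on chromosome 1 and 7 of 24 on chromosome 13, against 83 of all 462. Windows below 0 in all 3 epithelia thus made up most of chromosome 18 but not of chromosomes 1 and 13. Their values were small. The higher shares of chromosomes 15 and 19 were smaller, with 5 of 18 windows (27.8%) and 4 of 13 (30.8%) above 0 in all 3 epithelia, and the uncalled chromosome 11 had 9 of 25 (36%). On chromosome 19, FSP273 was below 0 where the other mice were above it, as from 10 to 20 Mb with 0.24, -0.13 and 0.20 in FSP270, FSP273 and FSP373, so that the shift of its mean was not shared along its length.

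The 3 windows with the highest mean all lay in the distal part of chromosome 8. The window from 110 to 115 Mb had 0.38 in FSP270, 1.07 in FSP273 and 0.50 in FSP373 (0.65 ± 0.37, 136 probes, adjusted p = 0.304, limma), against -0.056 ± 0.037 in the stroma. The windows from 105 to 110 Mb and from 95 to 100 Mb had means of 0.55 ± 0.36 and 0.54 ± 0.25 (n = 3 each). From 105 to 110 Mb the values were 0.27, 0.96 and 0.42 in FSP270, FSP273 and FSP373. Without FSP273 the mean of that window was 0.35. FSP273 and FSP373 had their highest window of chromosome 8 at 110 to 115 Mb, whereas FSP270 had its highest at 115 to 120 Mb (0.45) and nearly as high a value at 55 to 60 Mb (0.43), where FSP273 had -0.27. In each of the 3 windows FSP273 was the highest array.

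Of the lowest windows, the one at 5 to 10 Mb of chromosome 13 had -0.19, -0.34 and -0.39 (-0.31 ± 0.11, 36 probes), and its stroma was below 0 as well, at -0.15 ± 0.13. A single probe, at 9678947, carried much of this value: the other 35 probes had -0.030, -0.25 and -0.28 (-0.18 ± 0.13), with -0.13 ± 0.13 in the stroma. The window at 40 to 45 Mb of chromosome 12 had -0.11, -0.64 and -0.11 (-0.29 ± 0.31), a mean set by FSP273. The window at 5 to 10 Mb of chromosome 4 had -0.18, -0.33 and -0.30 (-0.27 ± 0.077), and its stroma was below 0 in all mice too, at -0.085 ± 0.046. The adjusted p of these windows in limma lay between 0.340 and 0.573.

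**Figure D2:**
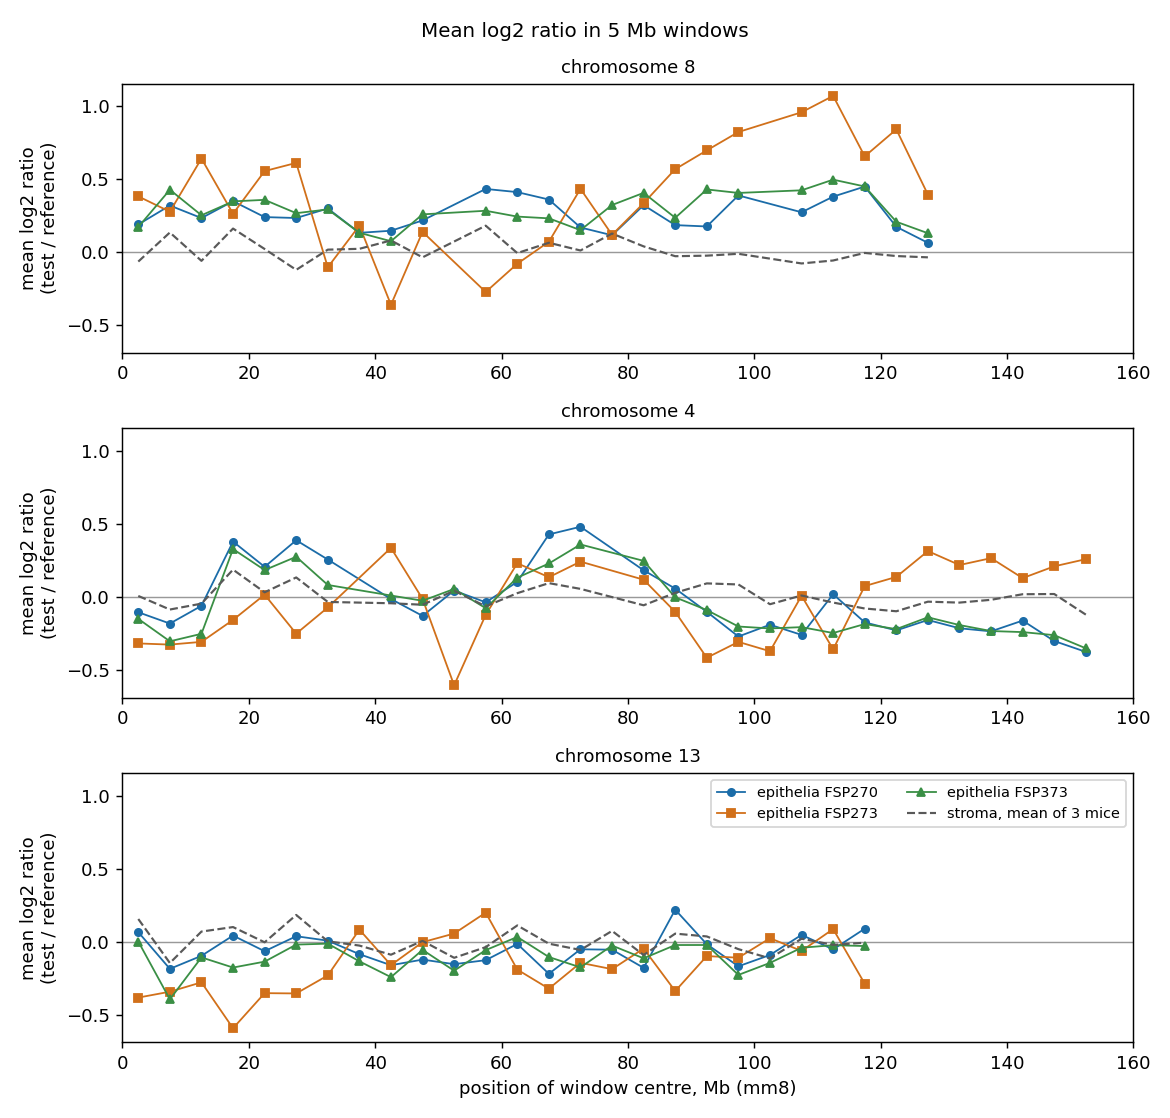
Mean log2 ratio (test over reference) of 5 Mb windows with at least 20 probes along chromosomes 8, 4 and 13 of mm8; solid lines with symbols are the epithelia of each mouse, the dashed line is the mean of the stroma of 3 mice, and lines join neighboring windows that were kept. FSP270 and FSP373 are above 0 along chromosome 8, while FSP273 lies below 0 in parts of its middle and reaches 1.07 at 110 to 115 Mb.

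The number of windows called changed with the arrays and the fit. Without FSP273, limma called 67 windows, 36 higher and 31 lower, whereas without FSP270 it called 0 (29 at an unadjusted p under 0.05) and without FSP373 it called 3. When limma weighted the arrays by their quality, FSP273 received a weight of 0.236 against 2.19 and 1.93 for FSP270 and FSP373, and 54 windows were called. The spread of all 6 arrays in place of the epithelia alone gave 9 windows, 7 of them on chromosome 8.

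The windows called without FSP273 describe FSP270 and FSP373 alone. On chromosome 8 they numbered 18 of 24, all higher, and the longest run went from 0 to 35 Mb with a mean of 0.27 in FSP270 and 0.30 in FSP373, where FSP273 had 0.38 but -0.10 in the window from 30 to 35 Mb. On chromosome 4 there were 6 higher and 11 lower windows. The run from 130 to 155 Mb of chromosome 4 had -0.26 in both FSP270 and FSP373 but 0.22 in FSP273, and the run from 15 to 30 Mb had 0.32 and 0.26 but -0.13 in FSP273, whose window from 20 to 25 Mb was at 0.016. From 55 to 70 Mb of chromosome 8 the means were 0.40 and 0.25 against -0.092, and FSP273 had 0.072 in the window from 65 to 70 Mb. The 3 mice therefore did not share these runs as a whole. In other runs of chromosome 4 the mean of FSP273 had the sign of the other mice, as from 95 to 110 Mb with -0.24, -0.22 and -0.21 in FSP270, FSP273 and FSP373, although FSP273 had 0.0088 in the window from 105 to 110 Mb, and from 65 to 75 Mb with 0.45, 0.19 and 0.29. The same was so at 5 to 10 Mb and 80 to 85 Mb, whereas at 115 to 125 Mb FSP273 had 0.11 against -0.20 in both others.

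For epithelia minus stroma limma called 0 windows (0%), and 43 were under an unadjusted p of 0.05. With the mouse as a block the count was also 0 (57 at an unadjusted p under 0.05), and the lowest adjusted p was 0.0537. The 3 distal windows of chromosome 8 named above had that value. Without the epithelia of FSP273 there were 16, 14 of them higher.

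Each array was also divided by itself into stretches of equal ratio. A stretch was called with a mean beyond 0.25 either way, and this gave 4 stretches in FSP270, 23 in FSP273 and 6 in FSP373. Only the 4 probes of the low run on chromosome 4 lay in stretches called with 1 sign in all 3 mice. The higher ratio of chromosome 8 fell on both sides of this limit. It was called in FSP273 as 4 stretches with means of 0.52, 0.38, 0.86 and 0.29, and in FSP373 from 87955191 to 122886876 with 0.43, but in FSP270 no stretch of chromosome 8 was called. Without FSP270, stretches of 660 autosomal probes were shared, 656 of them on chromosome 8, and without FSP273 there were 367.

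With a limit of 0.15, stretches of 1879 autosomal probes were shared by the 3 mice, 1485 higher and 394 lower. Chromosome 8 held nearly all of the higher ones. From 3151837 to 32597683 (446 probes) the mean was 0.25 in FSP270, 0.52 in FSP273 and 0.28 in FSP373 (0.35 ± 0.15), against -0.025 ± 0.044 in the stroma. From 72742443 to 122886876 (1031 probes) it was 0.26, 0.74 and 0.35 (0.45 ± 0.25), against -0.018 ± 0.052 in the stroma. Both stretches were chosen by their epithelial values, so their difference from the stroma is given without a test. Among probes well above background on all 3 epithelial arrays, chromosome 8 alone held shared stretches even at 0.25, with 1040 probes.

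The shared lower stretch at 0.15 began with the low run of chromosome 4 and ended at 115126817. Without the 4 probes of the run, its 390 probes from 89184415 onward had -0.19, -0.24 and -0.20 in FSP270, FSP273 and FSP373 (-0.21 ± 0.025). In the stroma they had 0.093, 0.0010 and -0.045. A short stretch of 8 probes on chromosome 10, from 128363690 to 128514976, was higher in the epithelia (0.42 ± 0.060) and in the stroma (0.56 ± 0.34), so that it was not particular to the epithelia.

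Beyond that stretch the mice differed on chromosome 10. From 128515051 to 129759311, FSP273 had a called stretch at -0.59, whereas FSP270 and FSP373 had called stretches at 0.31 and 0.35 that ended at the same probe. The stroma was higher than the reference as well, from 128363690 to 129759311, with 0.52 in FSP270, 0.19 in FSP273 and 0.22 in FSP373. In the stroma of FSP270 this was a called stretch. FSP273 also had higher stretches that were not called in the other mice, among them 95981478 to 121652625 of chromosome 11 (0.41), 71629516 to 103393065 of chromosome 15 (0.37) and 110573393 to 151918350 of chromosome 5 (0.34). A lower stretch called in FSP273 alone was 3489596 to 23364967 of chromosome 13 (-0.46).

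Single probes gave the focal changes. Over 42404 probes limma called 9 (0.0212%), all lower than the reference, and 2074 were under an unadjusted p of 0.05, 1445 higher and 629 lower. Of the 9, 4 were those of the run on chromosome 4, and the other 5 lay on chromosomes 8, 9 and 13. Each was a single low probe, and the mean of the 2 probes on each side of it lay between -0.28 and 0.00045. Without FSP270 limma called 118 probes, 80 higher and 38 lower, and without FSP273 it called 92, 51 higher and 41 lower. Among probes well above background on all 3 epithelial arrays it called 1, and with normexp background correction it called 5.

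The lowest was the probe at 9678947 to 9679006 of chromosome 13, with -5.63 in FSP270, -3.62 in FSP273 and -4.53 in FSP373 (-4.60 ± 1.01, adjusted p = 0.00236, limma). Its stroma had -0.50, -0.69 and -1.04. The probe at 54703687 to 54703746 of chromosome 9 had -4.32, -2.45 and -3.67 (-3.48 ± 0.95, adjusted p = 0.0126, limma), and its stroma was above 0 in all mice at 0.88, 0.92 and 0.70. The probe at 97117885 to 97117944 of chromosome 13 had -2.81, -3.18 and -3.15 (-3.04 ± 0.21, adjusted p = 0.00617, limma), with -0.13, 0.35 and 1.42 in the stroma. These 3 probes were picked for their low epithelial values, and their test signal was well above background on 1 or 2 of the 3 epithelial arrays. With normexp background correction all 3 were closer to 0. The probes at 9678947 and 54703687 had means of -2.57 and -2.27 and were still called (adjusted p = 0.0108 and 0.0283, limma). The probe at 97117885 was not called (-1.84, adjusted p = 0.0614, limma). When the deposited log ratios were used, the probe of chromosome 9 was not called (adjusted p = 0.0509, limma).

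At the other called probes the stroma of FSP270 was low too. The probe at 44634472 to 44634531 of chromosome 8 had -3.79, -3.47 and -4.39 in the epithelia (-3.88 ± 0.47, adjusted p = 0.00236, limma) and -4.31, 1.24 and 0.18 in the stroma of FSP270, FSP273 and FSP373. The probe at 65026883 to 65026942 of chromosome 13 had -4.15, -3.75 and -3.23 (-3.71 ± 0.46, adjusted p = 0.00236, limma) and -3.88, 0.10 and 1.22 in the stroma. In FSP270 the low values of these probes were thus found in both tissues. Neither was called with normexp background correction (-1.60 and -1.75, adjusted p = 0.171 and 0.0698, limma) or with the spread of all 6 arrays (adjusted p = 0.310 and 0.291, limma). The first of them lies within a chromosome whose mean was higher in every mouse.

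In all, 23 autosomal probes were below -1 in all 3 epithelia, and 19 of them lay outside the run of chromosome 4. On single arrays, 1158 autosomal probes were below -1 in FSP270, 5240 in FSP273 and 457 in FSP373. Chromosome 13, with 1663 of the 40666 autosomal probes, held 9 of the 19. Chromosomes 8 and 9, with 2155 and 2455 probes, held 4 each, and chromosomes 12 and 18, with 1504 and 1212, held 1 each. Their epithelial means lay between -4.60 and -1.19, with a median of -1.92, against a median stromal mean of -0.066. At 11 of the 19 no stromal array was below -1, and at 7 a single one was. The stroma of FSP270 was below -1 at 6 of the 19, that of FSP273 at 1 and that of FSP373 at 2. The mean of the 2 probes on each side had a median of -0.082 and lay between -0.38 and 0.32, so the low values were those of single probes.

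Dim signals limit what these probes show. The test signal was well above background on all 3 epithelial arrays at 7 of the 19 and on none at 2, while on the stromal arrays it was so at 15 of the 19. At the 5 called probes it was so on at most 2 of the epithelial arrays. A low ratio at such a dim probe is uncertain in size. With normexp background correction 15 probes in place of the 23 were below -1 in all 3 epithelia, and 8 were among probes well above background. In the stroma, 40 autosomal probes were below -1 in all 3 mice, at most 6 of them on any autosome, and 0 probes were below -1 on all 6 arrays.

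Of the 7 low probes whose test signal was well above background on every epithelial array, those on chromosomes 9, 12 and 18 are given here, chosen after their values were seen. The probe at 40496974 had -2.54, -2.09 and -2.09 in the epithelia and -0.40, -0.34 and -0.30 in the stroma. The probe at 44969890 had -2.17, -1.78 and -2.28 in the epithelia and 0.59, 0.85 and 1.24 in the stroma. Neither was past the threshold in the epithelia (adjusted p = 0.085 and 0.141, limma), but the second was for epithelia minus stroma. At 6 of the 7 every epithelial value was below every stromal one, and all had been chosen for low epithelial values. The exception was the probe at 32038613 of chromosome 12, with -1.25, -2.24 and -1.06 in the epithelia and -1.84, -0.69 and -0.97 in the stroma. On chromosome 18, the probe at 52608972 had -1.22, -1.28 and -1.08, against -0.40, -0.27 and -0.39 in the stroma.

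For epithelia minus stroma limma called 7 probes (0.0165%), all lower in the epithelia. Apart from 3 in the run of chromosome 4, they were the probes at 44969890 (-2.97, adjusted p = 0.0240, limma; 0.0216 with the mouse as a block) and 54703687 (-4.32, 0.0137; 0.00532 with that block) of chromosome 9, and at 9678947 (-3.85, 0.0312; 0.0127) and 97117885 (-3.59, 0.0240; 0.0127) of chromosome 13. With the mouse as a block 8 were called, and with the slide as a block the count was 0 (2352 at an unadjusted p under 0.05, limma). It was 4 with normexp background correction, and 2 when probes with a dim signal on any array were left out. It was 0 on the slide of FSP270 and FSP273 alone (2580 at an unadjusted p under 0.05, limma), and also without the epithelia of FSP373 (4648 at an unadjusted p under 0.05, limma) and without the stroma of FSP270, FSP273 or FSP373 (1120, 1432 and 2178).

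In the other direction, 25 autosomal probes were above 1 in all 3 epithelia and none was called higher. On single arrays, 1383 autosomal probes were above 1 in FSP270, 6138 in FSP273 and 605 in FSP373. Chromosome 8, with 2155 of the 40666 autosomal probes, held 7 of the 25, all between 73391473 and 122833082. Chromosome 4, with 2507 probes, held 3, and the rest lay singly or in pairs on other autosomes. The means of the 25 lay between 1.04 and 2.31. At 14 of the 25 no stromal array was above 1, and 3 were above 1 in all 3 stromal arrays too. The reference signal was well above background on all 3 epithelial arrays at only 3 of the 25. With normexp background correction 2 probes were above 1 in all 3 epithelia. In the stroma, 24 autosomal probes were above 1 in all 3 mice, 4 of them on chromosome 8.

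The highest of these by mean was the probe at 35595427 to 35595480 of chromosome 5, with 1.96, 1.41 and 3.58 in the epithelia (2.31 ± 1.13, adjusted p = 0.455, limma) and -0.67, -0.31 and 0.37 in the stroma. The probe at 66726250 of chromosome 1 had 2.33, 1.72 and 2.05, and its stroma had 3.95, 3.42 and 3.19. The probe at 99933432 of chromosome 11 had 1.74, 2.30 and 1.71, with 0.26, 3.49 and 1.16 in the stroma. On chromosome 8, the probe at 112140733 had 2.79, 1.47 and 1.33 in the epithelia and 1.49, 0.98 and 1.93 in the stroma, and the probe at 73391473 had 1.59, 2.40 and 1.29 against -0.80, -0.058 and 1.32. The reference signal of these 5 probes was well above background on at most 2 of the 3 epithelial arrays. At the probes of chromosomes 1 and 11 it was so on none, so the size of these ratios is uncertain. Epithelia minus stroma lay between -1.49 at the probe of chromosome 1 and 2.52 at that of chromosome 5. None of the 5 was called for that difference (adjusted p = 0.736 and 0.731 at these probes, limma).

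**Figure D3:**
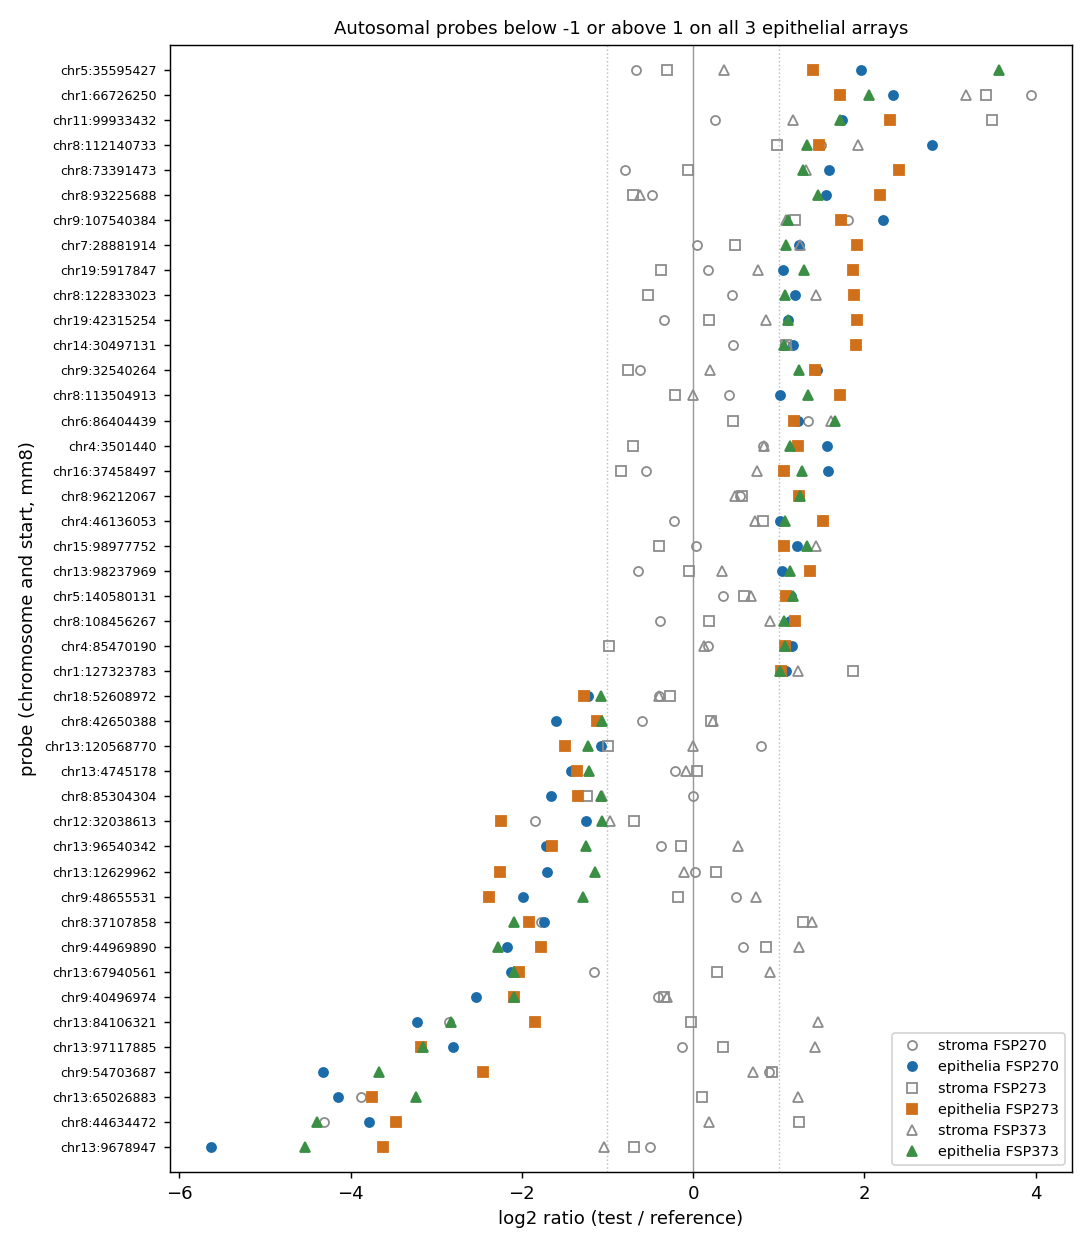
Log2 ratio (test over reference) of each of the 44 autosomal probes below -1 or above 1 in all 3 epithelia, without the run of chromosome 4, in the order of their epithelial mean; filled symbols are epithelia, open symbols stroma, the symbol shape is the mouse, and dotted lines mark -1 and 1. The lowest probes, on chromosomes 8, 9 and 13, reach -5.63 in the epithelia, and at some of them the stroma of FSP270 is low as well.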

How the data were processed

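DNA of laser captured epithelia of 3 Tgfbr2 fspKO mice was the test and DNA of control epithelia the reference. The deposited intensity values were made by the authors with Agilent Feature Extraction 10.7.1.1, which subtracted background and normalized the dyes. The deposited log10 values, from the same software, are ratios of the processed signals. Here the log2 ratio of processed test over reference signal was computed per spot, without control and outlier spots, averaged per probe and centered on the array median.

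Probes, means of 5 Mb autosomal windows with at least 20 probes (462, with 37 smaller ones left out) and means of 20 chromosomes were tested against 0 over the 3 epithelial arrays with limma 3.58.1 in R 4.3.3, with Benjamini-Hochberg adjustment and a threshold of 0.05. Epithelia minus stroma was tested over all 6 arrays. Stretches came from penalized least squares (penalty factor 3, at least 3 probes, mean beyond 0.25 either way). Python 3.11.15, numpy 2.4.6, pandas 2.3.3, numba 0.67.0 and matplotlib 3.10.9 were used. The methods were also run on simulated data, with noise drawn independently for each probe, window or chromosome. Those runs cannot show how the methods deal with noise shared by neighboring probes.

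The labels give epithelia and stroma of 1 number as 1 animal, and after the mean of each tissue was subtracted their correlation was 0.0776, -0.0232 and 0.103 over 42187 probes, which are not independent replicates. The mouse was a block only in an alternative. Probes to be named were the 10 lowest and 10 highest called ones with 1 sign on all 3 arrays outside the run of chromosome 4, or, with fewer than 5 called in a direction, the 5 most extreme beyond -1 or 1 on all 3 arrays. Windows named were the 3 highest and 3 lowest means, since none was called. Shared stretches named were those with the most probes. The rule named genes only where a table pairs a probe with a gene, which none used here does, so giving the listed genes by their chromosome (GRCm38 table) departs from it, and 1 result of the lists is not reported here. The other windows, the runs without FSP273 and the stretches of single arrays were named after their values were seen. Members and lists were chosen with earlier results of these data known. Alternatives were other background corrections, filters, centerings, summaries, window sizes, penalties, array weights, blocks by mouse or slide, and leaving out each array. The number of arrays limits the precision.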

Additional observations from a re-analysis of the deposited data

Results flagged for a closer look

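Chromosome 8 differed between the tissues, with a mean log2 ratio in epithelia minus stroma of 0.35, and chromosomes 1 and 18 differed by -0.15 and -0.12. With the mouse as a block, the adjusted p of these differences was 0.0204, 0.0468 and 0.0741 in limma, and with the slide as a block it was 0.00334, 0.0456 and 0.0736. Among the probes outside the run of chromosome 4, epithelia minus stroma was -2.97 at A_53_P125783 and -4.32 at A_53_P171953, both on chromosome 9, and -3.85 at A_53_P119493 and -3.59 at A_53_P107603, both on chromosome 13. With the mouse as a block, the adjusted p of these probes was 0.0216, 0.00532, 0.0127 and 0.0127 in limma. With the slide as a block it was 0.120, 0.101, 0.217 and 0.101, so none was called, and without any one of the 3 stromal arrays limma called 0 probes (1120, 1432 and 2178 at an unadjusted p under 0.05). Each was picked out because the difference between the tissues was past the threshold of the test.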

How the results depend on the processing

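The calls depended on single arrays and on settings, and the cause was not tested where a value changed. In the epithelia, the number of probes called (9) was 5 with normexp background correction, 1 among probes well above background and 24 with array weights, and between 9 and 118 with 1 array left out. The number of windows called (0, with 39 at an unadjusted p under 0.05, limma) was 54 with array weights and 9 with the spread of all 6 arrays, and between 0 and 67 with 1 array left out. The number of chromosomes called (6) was 3 with normexp and 3 with the median of probes, and between 0 and 14 with 1 array left out.

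For epithelia minus stroma, 1 window was called among probes well above background and 1 with normexp, against 0 (43 at an unadjusted p under 0.05, limma), and between 0 and 16 with 1 array left out. The number of chromosomes (3) was 6 among probes well above background, 1 on the slide with 2 mice alone, and between 0 and 10 with 1 array left out. The number of probes (7) was 0 with the slide as a block (2352 at an unadjusted p under 0.05, limma), 4 with normexp, 2 among probes well above background and 0 on the slide with 2 mice alone (2580), where the last 3 settings were added after seeing the data, and between 0 and 7 with 1 array left out.

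With the mouse as a replicate block, limma called 8 probes, 0 windows (57 at an unadjusted p under 0.05) and 2 chromosomes for epithelia minus stroma, against 7, 0 and 3 without it.

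The number of probes in shared stretches (4) was 0 with normexp, 1040 among probes well above background, 1879 with a limit of 0.15 and 0 with the penalty doubled, and between 4 and 660 with 1 array left out. The probes below -1 in all 3 epithelia (23) were 15 with normexp and 8 among those well above background, and those above 1 (25) were 2 and 5.

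Some fits were chosen after seeing the data. The slide as a random block could not be fitted on the 3 epithelial arrays (no correlation was estimated), and over all 6 arrays it gave 32 windows and 10 chromosomes in the epithelia. Array weights, added for chromosomes as loess was, gave 12 chromosomes, and their estimation stopped before its convergence tolerance. The penalty halved gave 599 probes in shared stretches. Of these, 578 lay on chromosome 8, with 0.34, 0.90 and 0.44 in FSP270, FSP273 and FSP373, so FSP270 then had a called stretch there. Another 17 lay from 69561599 to 71263571 of chromosome 1. They were low in the epithelia (-0.91 ± 0.18) and in the stroma (-0.86 ± 0.15).

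Uncalled chromosomes changed sign in the epithelia. Chromosome 6 was -0.0074 with normexp and -0.018 with the median of probes, chromosome 9 was 0.0014 with array weights, and chromosome 14 was 0.0045 with the slide as a random block and 0.0012 with loess within arrays. With 1 array left out, chromosome 3 lay between -0.0087 and 0.070, chromosome 5 between -0.0091 and 0.050, chromosome 6 between -0.023 and 0.051, chromosome 9 between -0.016 and 0.0064, chromosome 14 between -0.0063 and 0.0094 and chromosome X between -0.042 and 0.14. Of the other values of chromosomes under the alternatives, 188 kept their direction and their side of the threshold, 23 passed it and 30 no longer did. Dim signals limit the single probes. In FSP273 the test signal was well above background at 87.9% of probe spots and the reference signal at 78.8%.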
